A study of Mus musculus with 12 samples.

Results

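The potassium channel genes of the mouse striatum were described as the protein-coding genes whose symbol starts with Kcn and that had at least 10 counts in at least 3 of 12 RNA-seq libraries. Of 94 protein-coding Kcn genes, 84 met this rule, out of 55487 genes that the count files list. They fall into 21 subfamilies by the letters after Kcn, from 1 member in Kcnf, Kcnma, Kcnrg and Kcnu to 13 in Kcnj. The members with the lowest third-largest count were Kcnv2 (11 counts), Kcnq1 (12 counts) and Kcnk7 (15 counts), and the genes just outside were Kcnk15 (8 counts), Kcne3 (7 counts) and Kcna10 (6 counts). The other genes left out were Kcna7, Kcne1, Kcnj1, Kcnj15, Kcnk16, Kcnk18 and Kcnmb3.

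The libraries came from poly(A) RNA of striatal tissue of 12 mice, 3 animals in each of 4 groups. WT mice were C57BL/6J controls. HD mice were heterozygous for zQ175 neo-deleted (Q175DN), a knock-in allele that places an expanded CAG repeat in the mouse Htt gene and models Huntington's disease. cGAS-KO mice lacked cGAS, a sensor of cytosolic DNA that signals through STING. The cGAS-KO; HD mice, called double mutants here, combined the knock-in allele with loss of cGAS. The RNA is that of whole tissue with all its cell types, and the sources used here do not state the age, sex or litter of the mice. The series asks whether loss of cGAS alters disease in the knock-in mice.

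Potassium channels let potassium leave the cell, and by doing so they set the resting potential, shape the action potential and control how readily a neuron fires. Most are assembled from 4 pore-forming subunits, to which auxiliary subunits bind that change gating or traffic. Striatal medium spiny neurons, the main cell type of the striatum, rest at a very negative potential that inwardly rectifying channels maintain, and A-type and slowly inactivating currents delay their first spike. Glia use other members of the family to take up the potassium that neurons release.

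Library depth ranged from 59195327 to 72765623 counts, and the 84 members took 0.418% to 0.552% of them. Htt, the gene that carries the knock-in, ranged from 155.1 to 179.1 CPM (read counts scaled to library size with the TMM method of edgeR) in the 6 libraries without the allele and from 126.2 to 144.1 CPM in the 6 with it. Cgas gave a weak check of the labels. It was at 1.41 ± 0.129 CPM in WT and 0.777 ± 0.177 CPM in cGAS-KO (SD, n = 3 each), but at 1.15 ± 0.0963 CPM in HD and 1.03 ± 0.203 CPM in the double mutants, and no comparison called it. The sources used here do not state which part of Cgas is deleted, and counts over a whole gene do not test a deletion of part of it. Xist was high in 6 of the 12 libraries, and every group mixed high and low ones. cGAS-KO replicate 3 stood apart, with 11.5% of its counts in mitochondrially encoded genes against 5.30% to 9.03% in the others. Markers of cortical projection neurons were high in that library and in WT replicates 2 and 3, and those of choroid plexus differed between libraries of every group; these values are given beside the members they move with.

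The knock-in allele was accompanied by lower levels of potassium channel genes, and no member was called higher. With the effect of the allele averaged over mice with and without cGAS, 28 of 84 members fell and 0 rose by edgeR's quasi-likelihood test (Benjamini-Hochberg adjusted p under 0.05 over 21309 genes), where 7.63% of all genes tested were called lower and 5.59% higher. The 28 came from 13 of the 21 subfamilies. The median log2 change of the 84 members was -0.16, against 0.01 for all genes tested, with all changes given on the log2 scale, and the members ranged from -1.58 for Kcnh4 to 1.03 for Kcnn4, which was not called. In single pairs of groups, HD against WT gave 10 members lower and 0 higher (2.67% and 1.43% of all genes), with a median of -0.13. The double mutants against cGAS-KO gave 12 lower and 0 higher (2.52% and 1.44% of all genes), with a median of -0.25. At an unadjusted p under 0.05 there were 38, 27 and 32 members in the 3 comparisons (45.2%, 32.1% and 38.1%), against 27.5%, 18.8% and 17.4% of all genes. DESeq2 called 33, 21 and 22 members (39.3%, 25% and 26.2%), against 18.1%, 8.45% and 7.8% of all genes. limma-voom called 28, 9 and 12 members (33.3%, 10.7% and 14.3%), against 13.1%, 4.02% and 3.77%. The library values of both groups did not overlap for 22 of 84 members (26.2%) between HD and WT, against 27.7% of all genes, and for 32 members (38.1%) between the double mutants and cGAS-KO, against 21.5% of all genes. In bulk tissue, fewer cells of a type and less RNA per cell cannot be told apart.

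**Figure D1:**
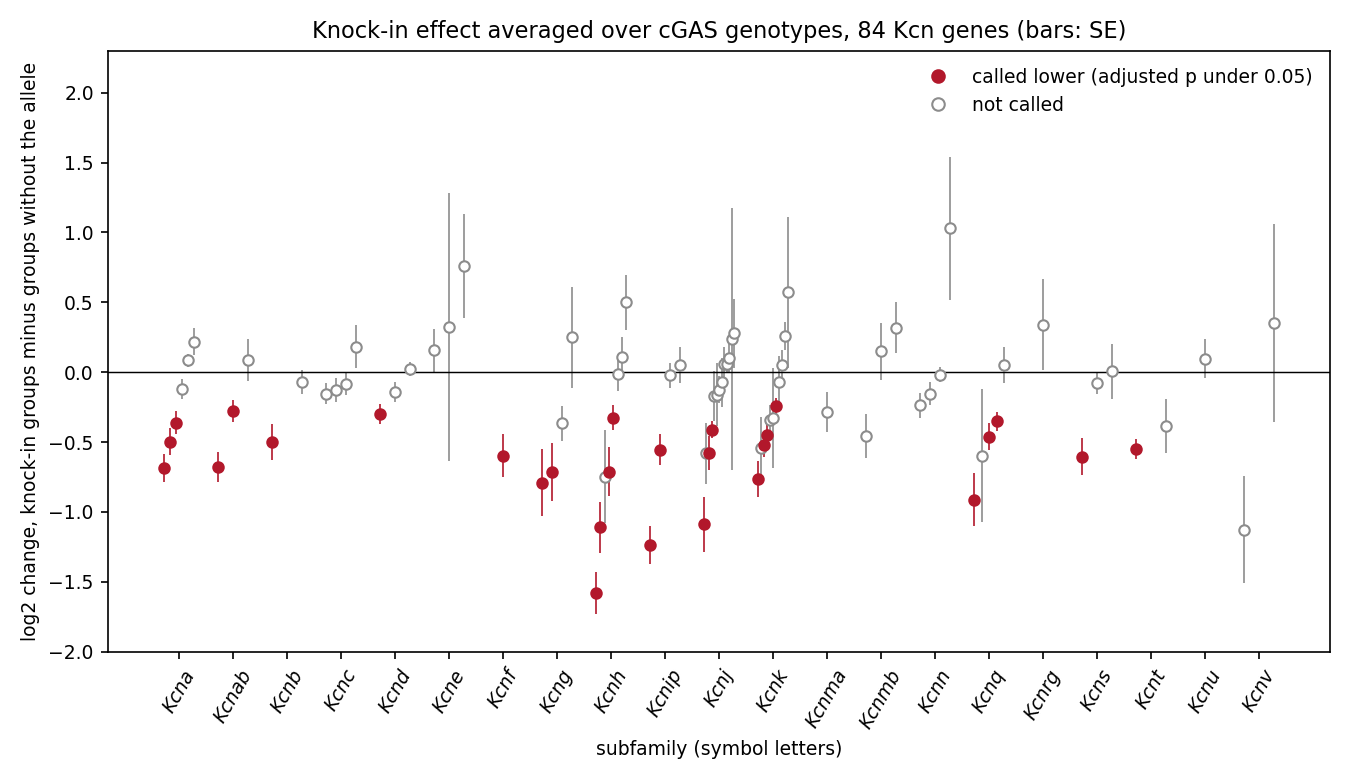
Log2 change with the knock-in allele, averaged over cGAS genotypes, for each of the 84 potassium channel genes, arranged by subfamily on the x axis; bars are standard errors and filled points are the 28 members called lower. All filled points lie below 0, Kcnh4 is lowest at -1.58, and 8 subfamilies hold no filled point.

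The pairwise counts depended on single libraries more than the averaged count did. HD against WT gave 22 members without WT replicate 1 (7.02% of all genes called), 4 without WT replicate 2 (1.29%), 3 without WT replicate 3 (1.13%), 8 without HD replicate 1 (3.27%), 4 without HD replicate 2 (1.21%) and 5 without HD replicate 3 (1.48%). The double mutants against cGAS-KO gave 4 members without cGAS-KO replicate 1 (1.76% of all genes called), 3 without double-mutant replicate 1 (1.55%), 6 without double-mutant replicate 2 (1.46%) and 7 without double-mutant replicate 3 (2.17%). Without cGAS-KO replicate 2 this pair gave 12 members (3.69%), and without cGAS-KO replicate 3 it gave 10 (4.97%). The count over all genes mostly moved with that of the members, but not when cGAS-KO replicate 3 was left out. Then the members called in this pair went from 12 to 10 while the share of all genes rose from 3.96% to 4.97%. For the averaged effect the members went from 28 to 24 while that share rose from 13.2% to 14.8%. The averaged count stayed between 19 and 33 when any 1 of the 12 libraries was left out (8.16% to 16.5% of all genes), and 19 of the 28 members were called under each of these omissions. The subfamilies are therefore described below by the averaged effect.

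Kcnh4, Kcnip2, Kcnt1, Kcna5 and Kcnab1 were called lower in both pairs of groups, which are 50% of the calls in HD against WT and 41.67% of those in the double mutants against cGAS-KO; over all genes 503 were called in both (57.62% and 59.67%). Kcnh4 (chr11:100740376-100759942, minus strand, GRCm38) encodes a voltage-gated channel of the ether-a-go-go-like group. It was at 25.7, 31 and 32.7 CPM in WT replicates 1 to 3 against 11.8, 10.5 and 6.53 CPM in HD, and 29.6, 25.5 and 27.8 CPM in cGAS-KO against 7.12, 10.1 and 11.6 CPM in the double mutants (values in this order of replicates throughout). Every library with the knock-in allele was lower than every library without it. The log2 change was -1.63 ± 0.21 (SE, adjusted p = 0.00158) in HD against WT and -1.52 ± 0.21 (SE, adjusted p = 0.00185) in the double mutants against cGAS-KO, and -1.58 ± 0.15 (SE, adjusted p = 4.41e-05) averaged.

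Kcnip2 (chr19:45791839-45816061, minus strand) encodes a calcium-binding subunit that joins Kcnd channels and helps to form the A-type current. Its values were 134, 155 and 194 CPM in WT against 86.9, 66.8 and 49 CPM in HD, and 195, 159 and 159 CPM in cGAS-KO against 67.9, 70.7 and 81.3 CPM in the double mutants. The groups with and without the allele did not overlap, and the highest of the 6 knock-in libraries was HD replicate 1. The log2 changes of Kcnip2 were -1.25 ± 0.19 and -1.22 ± 0.19 in the 2 pairs (SE, adjusted p = 0.00419 and 0.00419). Both calls held when any 1 library of the pair was left out.

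Kcnt1 (chr2:25863734-25918273, plus strand) encodes a channel opened by intracellular sodium. It was at 184, 214 and 229 CPM in WT against 147, 129.8 and 136 CPM in HD, and 208, 190 and 169.9 CPM in cGAS-KO against 127, 141 and 136 CPM in the double mutants. The 6 knock-in libraries lay below the other 6. Its log2 change was -0.60 ± 0.10 (SE, adjusted p = 0.00488) in HD and -0.49 ± 0.10 (SE, adjusted p = 0.0136) in the double mutants, and the latter was not called with any 1 of cGAS-KO replicate 1 or double-mutant replicate 1 left out (adjusted p from 0.0646 to 0.0726).

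Kcna5 (chr6:126532551-126535412, minus strand), a delayed rectifier of the Shaker type, was at 17.5, 20.6 and 20.6 CPM in WT against 13.4, 11.7 and 8.57 CPM in HD, and 22.8, 20.8 and 19.2 CPM in cGAS-KO against 14.2, 15.1 and 13.1 CPM in the double mutants. HD replicate 3 was the lowest, and again no knock-in library reached the level of a library without the allele. The log2 changes were -0.80 ± 0.14 (SE, adjusted p = 0.0088) and -0.57 ± 0.14 (SE, adjusted p = 0.0455). Kcna5 was not called in HD against WT without WT replicate 3 (adjusted p = 0.0507), nor in the double mutants against cGAS-KO with any 1 of cGAS-KO replicates 1 and 2 or double-mutant replicates 1, 2 and 3 left out (adjusted p from 0.0742 to 0.156). Kcnab1 (chr3:65109384-65378223, plus strand), an auxiliary subunit that binds Kcna channels in the cytoplasm, was at 192, 244 and 274 CPM in WT against 188, 152 and 119.5 CPM in HD, and 291, 242 and 262 CPM in cGAS-KO against 156, 165 and 157 CPM in the double mutants. WT replicate 1 and HD replicate 1 lay close together, and the double mutants were well below cGAS-KO. The log2 changes of Kcnab1 were -0.63 ± 0.15 (SE, adjusted p = 0.0402) and -0.73 ± 0.15 (SE, adjusted p = 0.0197). The first was not called with any 1 of WT replicates 2 and 3 or HD replicates 2 and 3 left out (adjusted p from 0.131 to 0.187) and the second not with any 1 of cGAS-KO replicates 1 and 3 or double-mutant replicates 1, 2 and 3 left out (adjusted p from 0.0506 to 0.0888).

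**Figure D2:**
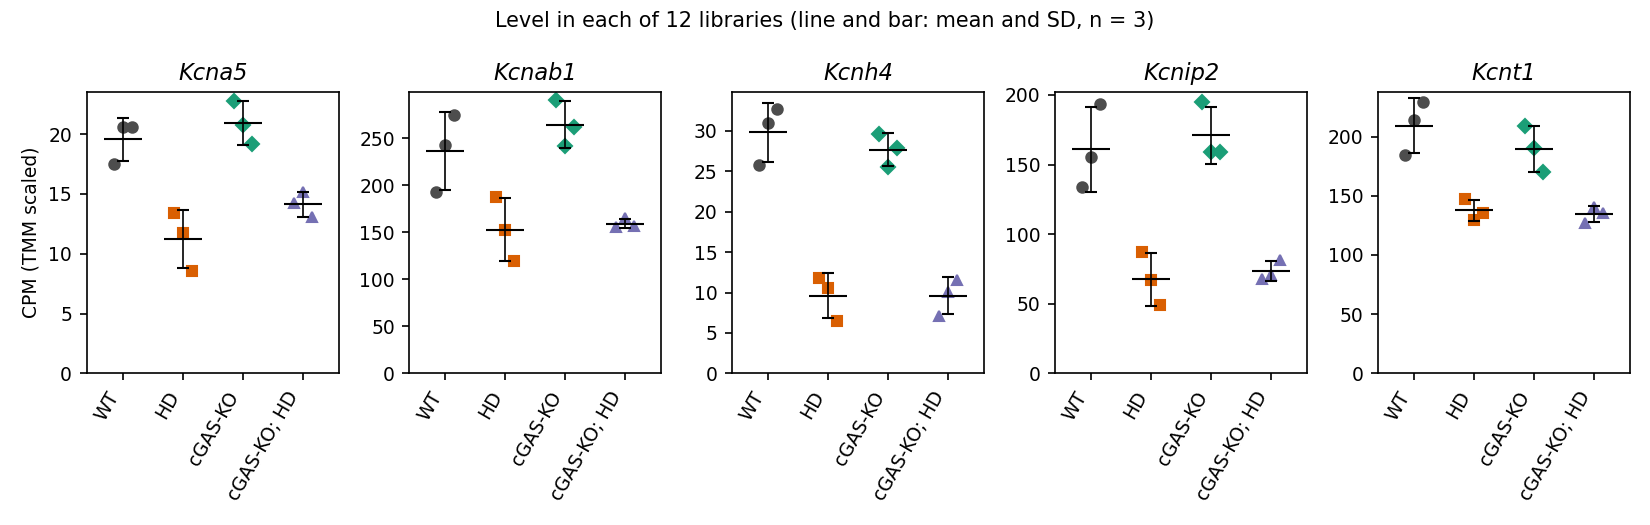
CPM in each of the 12 libraries for the 5 members called lower in both pairs of groups, with the mean and SD of 3 libraries per group. In each panel the HD and cGAS-KO; HD libraries lie below the WT and cGAS-KO libraries, as for Kcnh4, where the knock-in libraries reach 11.8 CPM at most and the others start at 25.5 CPM.

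Promoter windows of members that fell together are shown for 3 of these 5 genes, as 250 bases upstream of the RefSeq start nearest to the GENCODE start (GRCm38.p6). The windows are Kcnip2 at chr19:45816064-45816313 on the minus strand, Kcna5 at chr6:126535556-126535805 on the minus strand and Kcnab1 at chr3:65108764-65109013 on the plus strand. Each is written 5′ to 3′ towards the start site in lower case, and capitals mark a GC box (GGGCGG, either strand) or an E-box (CACGTG).
Kcnip2: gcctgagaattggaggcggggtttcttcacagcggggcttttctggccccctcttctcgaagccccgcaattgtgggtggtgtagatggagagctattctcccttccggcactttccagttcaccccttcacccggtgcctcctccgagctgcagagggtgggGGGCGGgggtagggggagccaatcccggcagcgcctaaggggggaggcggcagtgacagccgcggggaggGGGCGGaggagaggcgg
Kcna5: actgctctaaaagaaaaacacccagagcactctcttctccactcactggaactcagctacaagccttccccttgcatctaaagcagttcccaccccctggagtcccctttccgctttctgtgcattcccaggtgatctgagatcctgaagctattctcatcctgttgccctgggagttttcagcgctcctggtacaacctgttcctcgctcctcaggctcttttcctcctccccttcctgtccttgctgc
Kcnab1: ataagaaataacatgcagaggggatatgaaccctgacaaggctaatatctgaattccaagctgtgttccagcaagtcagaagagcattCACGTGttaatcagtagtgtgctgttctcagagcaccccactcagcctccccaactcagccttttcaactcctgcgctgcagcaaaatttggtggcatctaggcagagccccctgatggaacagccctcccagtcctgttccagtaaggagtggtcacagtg
Kcnip2 held 2 GC boxes, Kcnab1 held 1 E-box, and Kcna5 held neither. The window of Kcnh4, which is not printed, held 1 E-box and 1 GC box. The RefSeq starts used lay 2, 143 and 370 bases from the GENCODE starts of Kcnip2, Kcna5 and Kcnab1. A RefSeq promoter was matched for 60 of the 84 members, of which 19 are among the 28 that fell. GC boxes were found in 57.9% of those 19, in 48.8% of the 41 members with a promoter that were not called, and in 32.7% of 32851 promoters of the same length. E-boxes were found in 15.8%, 4.88% and 6.02%. TATA boxes (TATAAA) were found in none of the 19, in 4.88% of the 41 and in 12.4% of all promoters, and a cAMP response element (TGACGTCA) in none of the 60 and in 1.55% of all. Each member gave 1 window, while the 32851 promoters include every listed start of a gene and were not limited to genes expressed here. The sets are thus unlike. These are letter matches and no test was made.

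Among the pore-forming subunits of voltage-gated channels, the Shaker-type Kcna genes gave 3 of 6 members lower and 0 higher. Kcna1, which carries low-threshold current in axons, measured 62.7 to 101 CPM in the 6 libraries without the knock-in allele and 48.8 to 63.4 CPM in the 6 with it, and it fell by 0.50 ± 0.10 (SE, adjusted p = 0.00588). Kcna4, an A-type channel, measured 39.8 to 57.9 CPM in the 6 libraries without the knock-in allele and 32.9 to 45.4 CPM in the 6 with it and fell by 0.36 ± 0.08 (SE, adjusted p = 0.0116). Kcna5 fell by 0.68 ± 0.10 (SE, adjusted p = 0.000839). Kcna2, the partner of Kcna1 in axons and the member of this group with the highest level per length, was at 271 ± 12.3 CPM in WT against 278 ± 24.2 CPM in HD, and 286 ± 42.9 CPM in cGAS-KO against 235 ± 8.5 CPM in the double mutants (SD, n = 3 each), with an averaged log2 difference of -0.12 ± 0.07 (SE, adjusted p = 0.319). Kcna3 and Kcna6 were not called and had differences of 0.22 and 0.09.

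Among the A-type Kcnd genes 1 of 3 fell. Kcnd2, which forms the dendritic A-type channel with Kcnip proteins, measured 147 to 232 CPM in the 6 libraries without the knock-in allele and 134 to 151 CPM in the 6 with it and fell by 0.30 ± 0.07 (SE, adjusted p = 0.018). Kcnd2 was not called without WT replicate 2 (adjusted p = 0.0529), and its highest library was cGAS-KO replicate 3. Kcnd1 and Kcnd3, the other A-type members, had differences of -0.14 and 0.03 and were not called. None of the 4 Kcnc genes, whose channels support fast spiking of interneurons, was called by edgeR, and none had an unadjusted p under 0.05. Kcnc1, the highest of them per length, measured 193 ± 20.6 CPM in WT and 197 ± 23.6 CPM in HD, and 183 ± 23.5 CPM in cGAS-KO and 160.1 ± 8.31 CPM in the double mutants.

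Subunits of the Kcnf, Kcng, Kcns and Kcnv groups form no channel alone and modify those they join, which are other voltage-gated subunits. Of their 10 members 4 fell and none rose. Kcnf1 measured 39.1 to 77.2 CPM in the 6 libraries without the knock-in allele and 33.9 to 48.4 CPM in the 6 with it and fell by 0.60 ± 0.15 (SE, adjusted p = 0.0259). Kcng1 measured 15.9 to 43.8 CPM in the 6 libraries without the knock-in allele and 11.3 to 22.5 CPM in the 6 with it and fell by 0.71 ± 0.21 (SE, adjusted p = 0.0443). Kcng3 was at only 1.08 to 4.39 CPM over the 12 libraries, and fell by 0.79 ± 0.24 (SE, adjusted p = 0.0476). These 3 calls depended on single libraries. That of Kcnf1 was absent with any 1 of WT replicates 2 and 3, HD replicates 1, 2 and 3, cGAS-KO replicate 3 or double-mutant replicate 1 left out (adjusted p from 0.0502 to 0.0846). For Kcng1 it was absent with any 1 of WT replicates 2 and 3, HD replicates 2 and 3, cGAS-KO replicates 1 and 3 or double-mutant replicates 1, 2 and 3 left out (adjusted p from 0.0503 to 0.108), and for Kcng3 with any 1 of WT replicates 1, 2 and 3, HD replicates 2 and 3, cGAS-KO replicates 1 and 3 or double-mutant replicates 1 and 3 left out (adjusted p from 0.0616 to 0.106). Kcns1 measured 5.83 to 9.09 CPM in the 6 libraries without the knock-in allele and 4.02 to 6.71 CPM in the 6 with it and fell by 0.61 ± 0.13 (SE, adjusted p = 0.00936), a call that held under each omission of 1 library. Kcns2, the highest of the Kcns genes per length, had a difference of -0.08 ± 0.08 (SE, adjusted p = 0.587). Kcnv1 had a large difference, -1.13 ± 0.38, but was not called (adjusted p = 0.0857).

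The Kcnh genes gave 4 of 8 members lower and 0 higher, with a median log2 difference of -0.52. By the 3 groups within this subfamily, the ether-a-go-go-like genes Kcnh3 and Kcnh4 fell and Kcnh8 did not. Kcnh3 measured 49.8 to 100.4 CPM in the 6 libraries without the knock-in allele and 22.8 to 42.5 CPM in the 6 with it. Its averaged log2 change was -1.11 ± 0.18 (SE, adjusted p = 0.00277), and HD replicate 3 was its lowest library. Kcnh8 stood at 1.25 to 2.8 CPM, with a difference of 0.50 ± 0.20 (SE, adjusted p = 0.118). Without WT replicate 1 Kcnh8 was called higher, by 0.63 (adjusted p = 0.0434). Kcnh1 and Kcnh5, the ether-a-go-go genes, fell, with log2 changes of -0.71 ± 0.18 (SE, adjusted p = 0.0229) and -0.33 ± 0.09 (SE, adjusted p = 0.0301). Kcnh1 measured 42.9 to 93.9 CPM in the 6 libraries without the knock-in allele and 26.2 to 49.1 CPM in the 6 with it, and was not called with any 1 of WT replicates 2 and 3, cGAS-KO replicate 3 or double-mutant replicate 1 left out (adjusted p from 0.0565 to 0.0608). Kcnh5 measured 9.78 to 13.8 CPM in the 6 libraries without the knock-in allele and 7.53 to 10.8 CPM in the 6 with it, and was not called with any 1 of WT replicates 2 and 3, HD replicates 1 and 2 or double-mutant replicates 1 and 2 left out (adjusted p from 0.0534 to 0.0774). The ether-a-go-go-related genes Kcnh2, Kcnh6 and Kcnh7 were not called. Kcnh2, the member of the subfamily with the highest level per length, had a difference of 0.11 ± 0.14 (SE, adjusted p = 0.675), and Kcnh7, which ranged from 47.2 to 202 CPM, one of -0.75 ± 0.33 (SE, adjusted p = 0.183).

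The Kcnq genes gave 3 of 5 members lower and 0 higher, among them Kcnq3 and Kcnq5, whose products contribute to the M current that acetylcholine closes through muscarinic receptors. Kcnq3 measured 197 to 329.9 CPM in the 6 libraries without the knock-in allele and 166 to 187 CPM in the 6 with it and fell by 0.46 ± 0.10 (SE, adjusted p = 0.00868). Kcnq5 measured 75.3 to 175 CPM in the 6 libraries without the knock-in allele and 42.6 to 78.3 CPM in the 6 with it and fell by 0.91 ± 0.19 (SE, adjusted p = 0.00942). In Kcnq3 and Kcnq5 cGAS-KO replicate 3 was the highest library, and both calls held when that or any other single library was left out. Kcnq1 had 0.0291 to 0.395 CPM, close to the lower limit of the rule.

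The 13 inwardly rectifying Kcnj genes gave 3 lower and 0 higher. The classical inward rectifiers, which hold the resting potential, held 2 of the 3. Kcnj4 was at 57.4, 94.5 and 108 CPM in WT against 47.5, 43.2 and 28.9 CPM in HD, and 108, 84.9 and 69.8 CPM in cGAS-KO against 30.7, 50.9 and 44.4 CPM in the double mutants. The knock-in libraries were all lower than the others, and WT replicate 1 was the nearest to them. Kcnj4 fell by 1.09 ± 0.20 (SE, adjusted p = 0.00473). Kcnj2 measured 30.4 to 47.9 CPM in the 6 libraries without the knock-in allele and 19.9 to 33.2 CPM in the 6 with it, with overlap between WT replicate 1 and HD replicate 1, and fell by 0.58 ± 0.12 (SE, adjusted p = 0.00867). Kcnj12 and Kcnj14, of the same class, had differences of 0.06 and -0.16 and were not called. Kcnj11, the pore of ATP-sensitive channels, was at 29.8, 33.7 and 35.2 CPM in WT against 26.6, 27.9 and 24.9 CPM in HD, and 33.9, 34 and 38.8 CPM in cGAS-KO against 24, 25.6 and 25.4 CPM in the double mutants. The 6 knock-in libraries lay below the other 6, and Kcnj11 fell by 0.41 ± 0.06 (SE, adjusted p = 0.000826). Kcnj8, the other ATP-sensitive pore, had a difference of -0.07.

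None of the G protein-gated genes Kcnj3, Kcnj5, Kcnj6 and Kcnj9 was called, with averaged differences of -0.17, 0.28, -0.58 and -0.13. Of the glial genes, Kcnj10 clears potassium in astrocytes and had the highest level per length of all members. It was at 343, 239.6 and 228 CPM in WT against 283, 296 and 318 CPM in HD, and 236, 297 and 254 CPM in cGAS-KO against 264, 256 and 297 CPM in the double mutants, and the 4 groups overlapped. Its averaged difference was 0.10 ± 0.10 (SE, adjusted p = 0.569). With WT replicate 1 and cGAS-KO replicate 3 both left out, Kcnj10 was called higher in HD than in WT, by 0.35 (adjusted p = 0.0266). Kcnj16, which joins Kcnj10 in one channel, ranged from 24.2 to 29.6 CPM over the 12 libraries, with a difference of 0.06.

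The tandem pore-domain Kcnk genes, whose channels carry leak current, gave 4 of 11 members lower and 0 higher. Kcnk2, a channel sensitive to stretch and lipids, measured 61.8 to 114 CPM in the 6 libraries without the knock-in allele and 41.3 to 60.5 CPM in the 6 with it and fell by 0.76 ± 0.13 (SE, adjusted p = 0.00281). Kcnk9, an acid-sensitive channel, measured 81.4 to 107 CPM in the 6 libraries without the knock-in allele and 63.4 to 78.8 CPM in the 6 with it and fell by 0.45 ± 0.09 (SE, adjusted p = 0.00449). Kcnk13 measured 10.4 to 13.1 CPM in the 6 libraries without the knock-in allele and 6.88 to 9.01 CPM in the 6 with it and fell by 0.52 ± 0.09 (SE, adjusted p = 0.00178). Those 3 calls held under each omission of 1 library. Kcnk1, with the highest level per length in the subfamily, measured 70.9 to 91.4 CPM in the 6 libraries without the knock-in allele and 63 to 69.7 CPM in the 6 with it and fell by 0.24 ± 0.06 (SE, adjusted p = 0.0197), but was not called with any 1 of WT replicates 2 and 3 or double-mutant replicate 2 left out (adjusted p from 0.0539 to 0.0592). Kcnk4 and Kcnk10, the mechanosensitive relatives of Kcnk2, had differences of -0.55 and 0.26, and Kcnk3, the acid-sensitive relative of Kcnk9, one of 0.05. These were not called. Kcnk5, Kcnk6, Kcnk7 and Kcnk12 were not called either, and Kcnk6 was at an adjusted p of 0.0504.

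The Kcnma, Kcnmb, Kcnn, Kcnt and Kcnu genes, most of them for channels opened by calcium or sodium or for their subunits, gave 1 call among 11 members. That was Kcnt1, with -0.55 ± 0.07 (SE, adjusted p = 0.000264) averaged, while Kcnt2 had a difference of -0.39 ± 0.20 (SE, adjusted p = 0.232). Kcnma1, the large-conductance calcium-activated channel, was at 229, 298 and 282 CPM in WT against 226, 233 and 255 CPM in HD, and 244, 249.8 and 461 CPM in cGAS-KO against 265, 242 and 222 CPM in the double mutants. cGAS-KO replicate 3 was far above the other 11 libraries, and the difference of Kcnma1 was -0.28 ± 0.15 (SE, adjusted p = 0.235). Kcnmb4, its auxiliary subunit in neurons, had a difference of -0.46 ± 0.16 (SE, adjusted p = 0.0786), and Kcnmb1 and Kcnmb2 had 0.32 and 0.15. Of the small-conductance Kcnn genes, Kcnn3 had the highest level per length and was at 59.2 ± 2.71 CPM in WT against 59.3 ± 3.68 CPM in HD, and 68.1 ± 4.74 CPM in cGAS-KO against 66.3 ± 3.3 CPM in the double mutants (SD, n = 3 each). Its averaged difference was -0.02 ± 0.05 (SE, adjusted p = 0.866), and that of Kcnn2 was -0.24 ± 0.09 (SE, adjusted p = 0.0938). Kcnn4 had at most 0.526 CPM, and 0 counts in 1 library. Kcnu1, known as a sperm channel, was at 2.42 to 4.32 CPM, with a difference of 0.10 ± 0.14 (SE, adjusted p = 0.718).

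Among auxiliary subunits, the Kcnip and Kcnab genes held 4 calls among 7 members and the Kcne genes none among 3. Kcnip2 fell by 1.24 ± 0.13 (SE, adjusted p = 0.000141). Kcnip3, a calcium-binding protein also known as a transcriptional repressor, measured 85.8 to 139 CPM in the 6 libraries without the knock-in allele and 68.6 to 76.4 CPM in the 6 with it and fell by 0.56 ± 0.11 (SE, adjusted p = 0.00662). Kcnip1 and Kcnip4, which bind the same Kcnd channels, had differences of -0.02 and 0.05 and were not called. Kcnab1 fell by 0.68 ± 0.11 (SE, adjusted p = 0.00148) and Kcnab2 fell by 0.28 ± 0.08 (SE, adjusted p = 0.0314). Kcnab2 measured 234 to 311 CPM in the 6 libraries without the knock-in allele and 198 to 245 CPM in the 6 with it, and was not called with any 1 of WT replicates 2 and 3, HD replicates 1 and 2 or double-mutant replicates 1 and 2 left out (adjusted p from 0.0544 to 0.0892). Kcnab3 had a difference of 0.09. Kcne4, a single-span subunit, was at 0.876, 0.565 and 0.953 CPM in WT against 0.714, 1.5 and 3.37 CPM in HD, and 0.487, 0.906 and 0.39 CPM in cGAS-KO against 0.554, 1.13 and 0.513 CPM in the double mutants. HD replicate 3 was the highest, and the difference of Kcne4 was 0.76 ± 0.37 (SE, adjusted p = 0.211). Kcne1l, the highest Kcne gene per length, had one of 0.16 ± 0.15 (SE, adjusted p = 0.559). Kcnrg, which is not a channel but hinders the assembly of voltage-gated subunits, stayed below 1 CPM and had one of 0.34 ± 0.32 (SE, adjusted p = 0.554).

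Summed over members, 12 of 21 subfamilies were lower with the knock-in allele by more than either SD in both pairs. The 8 Kcnh genes together were at 334.5 ± 71.1 CPM in WT and 207.5 ± 17.5 CPM in HD, and at 351 ± 91.4 CPM in cGAS-KO and 232 ± 19.9 CPM in the double mutants (SD, n = 3 each). The 4 Kcnip genes were at 391 ± 27.6 and 268 ± 17.3 CPM, and at 414 ± 40.7 and 282 ± 18.5 CPM, in the same order. The 5 Kcnq genes were at 750.2 ± 97.3 and 566 ± 38.7 CPM, and at 829 ± 113.5 and 587 ± 10.7 CPM. The 11 Kcnk genes were at 309.6 ± 34.7 and 233 ± 6.08 CPM, and at 320.1 ± 35.6 and 239 ± 3.01 CPM. The 4 Kcnn genes, with no call, were also among the 12, with smaller differences, at 97.0 ± 1.91 and 91.5 ± 3.86 CPM, and at 106.7 ± 1.24 and 100.2 ± 4.41 CPM. The 4 Kcnc genes were at 443 ± 44.8 CPM in WT and 465 ± 74.1 CPM in HD, and at 416 ± 61.8 CPM in cGAS-KO and 377 ± 19.9 CPM in the double mutants, and were not among them. Some subfamilies passed narrowly. Kcnb was at 267 ± 65.9 CPM in cGAS-KO and 199.9 ± 9.61 CPM in the double mutants. Kcnd was at 258.3 ± 8.85 CPM in WT and 247 ± 8.89 CPM in HD. The SD of 3 libraries is a loose bar, and no share of other gene sets that meet it is given here. These sums are descriptions and carry no test.

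Loss of cGAS was accompanied by no call among the members. By edgeR, 0 of 84 were called in cGAS-KO against WT (0% of all genes), 0 in the double mutants against HD (0.00469%), 0 for the cGAS effect averaged over knock-in genotypes (0%) and 0 for the interaction of the knock-in with loss of cGAS (0.00469%). The counts at an unadjusted p under 0.05 were 7, 12, 11 and 3 (8.33%, 14.3%, 13.1% and 3.57% of the members), against 4.28%, 5.78%, 8.63% and 2.84% of all genes, and DESeq2 and limma-voom also called 0 in each. The member with the smallest p in cGAS-KO against WT was Kcnd2, at 147, 162 and 159.5 CPM in WT and 182, 169.9 and 232 CPM in cGAS-KO, a log2 difference of 0.32 ± 0.10 (SE, adjusted p = 0.919). All 3 cGAS-KO libraries of Kcnd2 were above the WT libraries, with replicate 3 the highest. In the double mutants against HD it was Kcnab3, at 26.2, 33.4 and 48.7 CPM in HD and 21.3, 22.4 and 22.4 CPM in the double mutants, with -0.71 ± 0.21 (SE, adjusted p = 0.757). HD replicate 3 was the highest library of Kcnab3. For the averaged cGAS effect it was Kcnn3, with 0.18 ± 0.05 (SE, adjusted p = 0.564), and for the interaction Kcnd2, with -0.35 ± 0.15 (SE, adjusted p = 1). The median log2 differences of the 84 members were 0.02 in cGAS-KO against WT and -0.01 in the double mutants against HD. Library values of cGAS-KO and WT did not overlap for 8 members (9.52%), Kcnd2 among them, against 8.79% of all genes. Those of the double mutants and HD did not overlap for 20 members (23.8%), against 17.1% of all genes. With both WT replicate 1 and cGAS-KO replicate 3 left out, 1 member was called (0.175% of all genes), Kcnj3, which was lower in cGAS-KO than in WT with a log2 difference of -0.40 (adjusted p = 0.0433).

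The 2 knock-in comparisons share no library, so their values can be set side by side. Across the 84 members, Pearson's r of the log2 changes was 0.58 and Spearman's rho 0.75, against 0.61 and 0.52 across all genes tested; genes are not independent replicates, and no p is given. Both changes were below 0 for 45 members (53.6%) and above 0 for 17 (20.2%), against 34.2% and 36.7% of all genes. For Kcnh4 the changes were -1.63 in HD and -1.52 in the double mutants, and for Kcnip2 -1.25 and -1.22. Kcnh3, Kcnj4, Kcnk2, Kcnk9 and Kcns1 were called in HD against WT alone, at -1.31, -1.12, -0.81, -0.50 and -0.78. In the double mutants the same genes had -0.91, -1.06, -0.72, -0.39 and -0.43. Kcna1, Kcna4, Kcnd2, Kcnj11, Kcnk13 and Kcnq3 were among those called in the double mutants alone, at -0.62, -0.48, -0.47, -0.51, -0.62 and -0.55. In HD they had -0.37, -0.24, -0.12, -0.32, -0.41 and -0.37. The interaction, which tests the difference between both changes, called no member. The points farthest from equality, Kcnn4, Kcnq1 and Kcnv2, are members with few counts, with standard errors of 0.61 to 1.09.

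**Figure D3:**
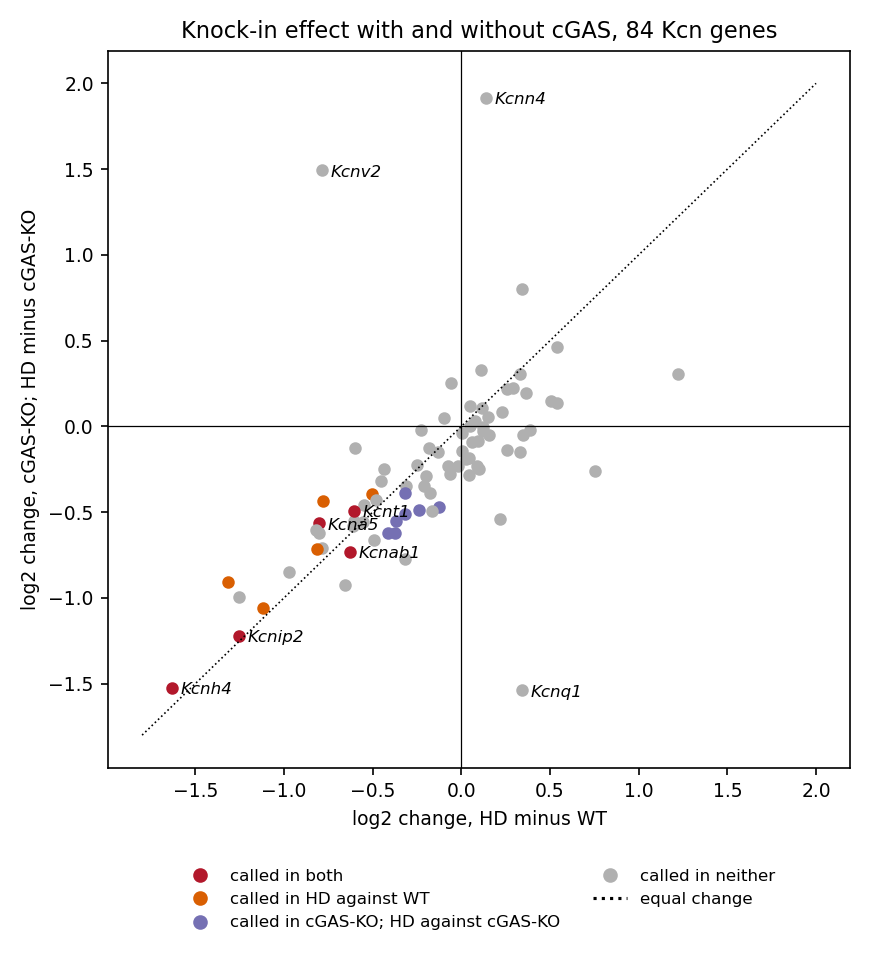
Log2 change with the knock-in allele in mice with cGAS (x axis, HD minus WT) and without it (y axis, cGAS-KO; HD minus cGAS-KO) for the 84 members, coloured by the comparison that called them. The 5 members called in both lie at the lower left near the line of equal change, with Kcnh4 at -1.63 and -1.52, and the isolated points Kcnn4, Kcnv2 and Kcnq1 were called in neither.

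Single libraries touch many of these pairwise calls, as the counts above show. In HD against WT, Kcnh3 was not called with any 1 of WT replicates 2 and 3 or HD replicates 2 and 3 left out (adjusted p from 0.0738 to 0.0849), Kcnj4 not with any 1 of WT replicates 2 and 3 or HD replicates 1, 2 and 3 left out (adjusted p from 0.068 to 0.198), Kcnk2 not with any 1 of WT replicates 2 and 3 or HD replicates 2 and 3 left out (adjusted p from 0.118 to 0.138), Kcnk9 not with any 1 of WT replicates 2 and 3 or HD replicates 1 and 2 left out (adjusted p from 0.0943 to 0.173) and Kcns1 not with any 1 of WT replicates 2 and 3 or HD replicates 1, 2 and 3 left out (adjusted p from 0.0622 to 0.176). In the double mutants against cGAS-KO, Kcna1 was not called with any 1 of cGAS-KO replicates 1 and 3 or double-mutant replicates 1 and 3 left out (adjusted p from 0.0611 to 0.127). Kcna4 was not called with any 1 of cGAS-KO replicates 1 and 3 or double-mutant replicates 1, 2 and 3 left out (adjusted p from 0.0506 to 0.128), and Kcnd2 not with any 1 of double-mutant replicates 1, 2 or 3 left out (adjusted p from 0.0509 to 0.11). Kcnk13 was not called with any 1 of cGAS-KO replicate 1 or double-mutant replicate 1 left out (adjusted p from 0.061 to 0.0688) and Kcnq3 not with any 1 of cGAS-KO replicate 1 or double-mutant replicates 1, 2 and 3 left out (adjusted p from 0.0603 to 0.151). Kcnj11 was called under each omission.

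Levels per length, in CPM per kilobase of merged exon averaged over the 4 groups, were highest for Kcnj10 (51), Kcnab2 (44.6), Kcnip2 (34), Kcnk1 (32.1), Kcnd2 (30.8) and Kcnj4 (29.7). The libraries of neighbours in this order overlapped. Kcnip2 and Kcnj4 were spread widely, with their knock-in libraries low, as the plot of levels per length shows. Calls were more frequent among members with more counts. When the 84 members were ordered by mean CPM and divided into 4 sets of 21, the averaged comparison called 11, 10, 6 and 1 from the highest set (82.6 CPM and above) to the lowest (4.52 CPM and below). The median log2 differences of these sets were -0.28, -0.36, -0.15 and 0.01.

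**Figure D4:**
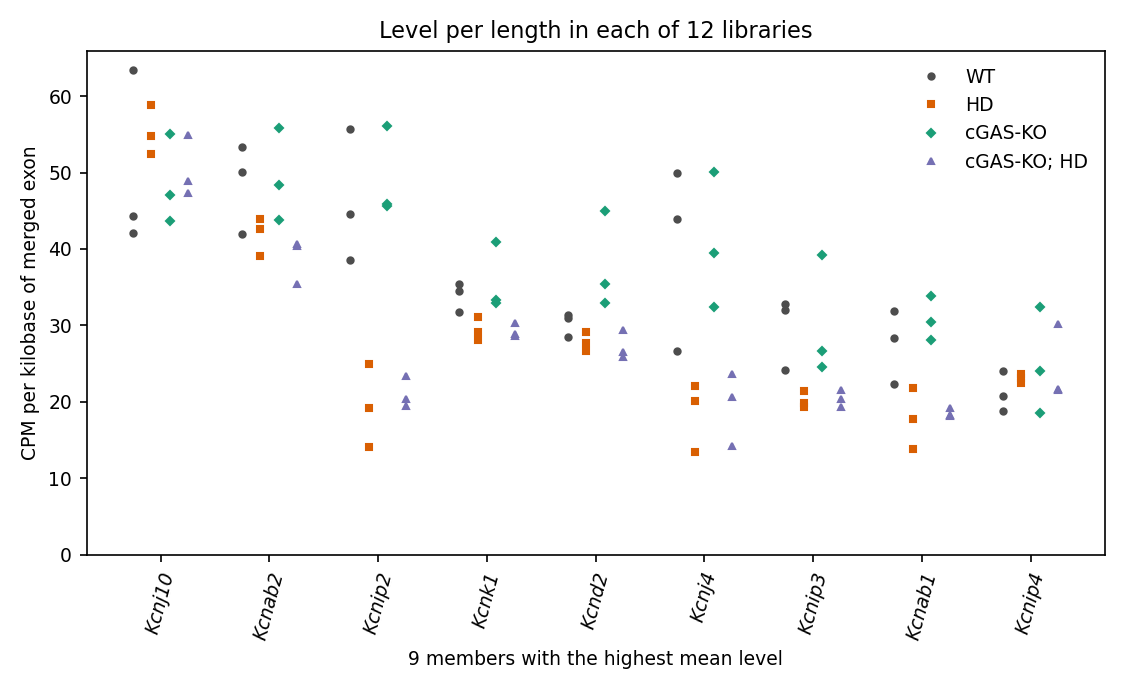
CPM per kilobase of merged exon in each library (y axis) for the 9 members with the highest mean level (x axis), with 3 points per group. Kcnj10 and Kcnab2 are highest. Kcnip2, Kcnj4, Kcnip3, Kcnk1 and Kcnab1 show HD and cGAS-KO; HD points below those of WT and cGAS-KO, for Kcnk1 and Kcnab1 by little.

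Markers of medium spiny neurons moved with the knock-in allele in the same libraries. All 15 of 15 listed markers (among them Drd1, Drd2, Ppp1r1b and Penk) were called lower in the averaged comparison, with a median log2 change of -1.26. Their summed level was 3892 to 5447 CPM in WT, 1403 to 2588 CPM in HD, 4880 to 5929 CPM in cGAS-KO and 2196 to 2287 CPM in the double mutants, and none was at 0 in any library. Among the HD libraries the marker sum was 2588 CPM in replicate 1, 2000 CPM in replicate 2 and 1403 CPM in replicate 3. Kcnip2, Kcnh4, Kcna5, Kcnh3 and Kcnj4, picked here for that order, were also highest in HD replicate 1 and lowest in HD replicate 3. This order was not shared by all called members, as Kcnt1 was lowest and Kcnj11 highest in HD replicate 2. The share of all members or of all genes with this order is not given here. Markers of thalamus, septum and pallidum ran in the opposite order in HD, at 598.5, 786.8 and 1072 CPM in replicates 1 to 3. Within HD these 2 patterns cannot be told apart. In cGAS-KO the medium spiny neuron marker sum was highest in replicate 1 and lowest in replicate 2. Kcnh4 ran in the same order there, while Kcna5 and Kcnj4 were lowest in replicate 3. Only Kcnh4 among the members had a larger averaged change than the median medium spiny neuron marker. The part of medium spiny neurons in the changes of the members was not tested.

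Cortical projection neuron markers differed between the libraries of WT and between those of cGAS-KO. The 11 markers, which include Slc17a7 and Tbr1, summed to 263.1 CPM in WT replicate 1 and to 862.5 and 1020 CPM in WT replicates 2 and 3, to 232.7 to 287.8 CPM in HD, to 324 to 1450 CPM in cGAS-KO, highest in replicate 3, and to 294.6 to 453.8 CPM in the double mutants. None was at 0 in any library, and 1 of 11 was called lower in the averaged comparison. Kcnv1 was highest in cGAS-KO replicate 3 and WT replicate 3, which had the highest sums, at 21.6, 56 and 70.1 CPM in WT against 27.3, 21.7 and 12.9 CPM in HD, and 57.2, 31 and 118 CPM in cGAS-KO against 34.3, 39.6 and 29.3 CPM in the double mutants. Within HD, where the marker sum varied little, Kcnv1 did not follow it. With the mean log2 level of these markers as a covariate, a setting chosen after seeing the data, 19 of the 28 members were still called (8.47% of all genes were called) and all 28 differences stayed below 0. Kcnh4 had -1.45 (adjusted p = 0.000184) and Kcnip2 -1.14 (adjusted p = 0.00155). Among the 9 members no longer called, each given with its log2 difference and adjusted p, were Kcna4 (-0.25, 0.0667), Kcnab2 (-0.16, 0.171), Kcnd2 (-0.19, 0.0981), Kcnf1 (-0.27, 0.0967), Kcng1 (-0.25, 0.153), Kcng3 (-0.60, 0.190), Kcnh5 (-0.28, 0.114) and Kcnk1 (-0.15, 0.107). The marker sum was itself lower in HD than in 2 of the 3 WT libraries, so the covariate and the knock-in effect are partly confounded. In single pairs the same covariate gave 5 members in HD against WT (2.34% of all genes), where 10 were called without it. In the double mutants against cGAS-KO it gave 18 (5.88%), where 12 were called without it. Markers of thalamus, septum and pallidum, 9 genes of which none was called, summed to 303.5 to 765.5 CPM in WT, 598.5 to 1072 CPM in HD, 233.6 to 745.6 CPM in cGAS-KO and 431.1 to 639.9 CPM in the double mutants, and with their level as a covariate 24 members were called for the averaged effect (11.6% of all genes). Of other cell types, 3 of 10 striatal interneuron markers were called lower, 1 of 8 astrocyte markers higher and 1 lower, 1 of 9 oligodendrocyte markers higher and 3 lower, 1 of 5 precursor markers higher, 2 of 9 microglia markers higher, and 1 of 10 endothelial and mural markers lower.

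Kcnj13 and Kcne2, which were chosen for description after their values were seen, varied with choroid plexus markers. The 8 markers, Ttr among them, summed to 92.1 to 1990 CPM in WT, 314 to 2094 CPM in HD, 244.6 to 970.1 CPM in cGAS-KO and 133.5 to 1263 CPM in the double mutants. None was at 0 in any library and none was called. Kcnj13, an inward rectifier known from the choroid plexus, was at 21.9, 1.47 and 0.512 CPM in WT against 8.97, 17.9 and 1.69 CPM in HD, and 7.35, 7.66 and 3.58 CPM in cGAS-KO against 9.98, 10.5 and 1.14 CPM in the double mutants. Kcne2, a subunit of choroid plexus channels, was at 10.2, 0.633 and 0.242 CPM in WT against 4.49, 9.82 and 1.39 CPM in HD, and 3.72, 4.61 and 1 CPM in cGAS-KO against 4.63, 5.37 and 0.328 CPM in the double mutants. The libraries with high markers were high in both genes within every group, and the averaged differences were 0.24 ± 0.94 and 0.33 ± 0.96, smaller than their standard errors.

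**Figure D5:**
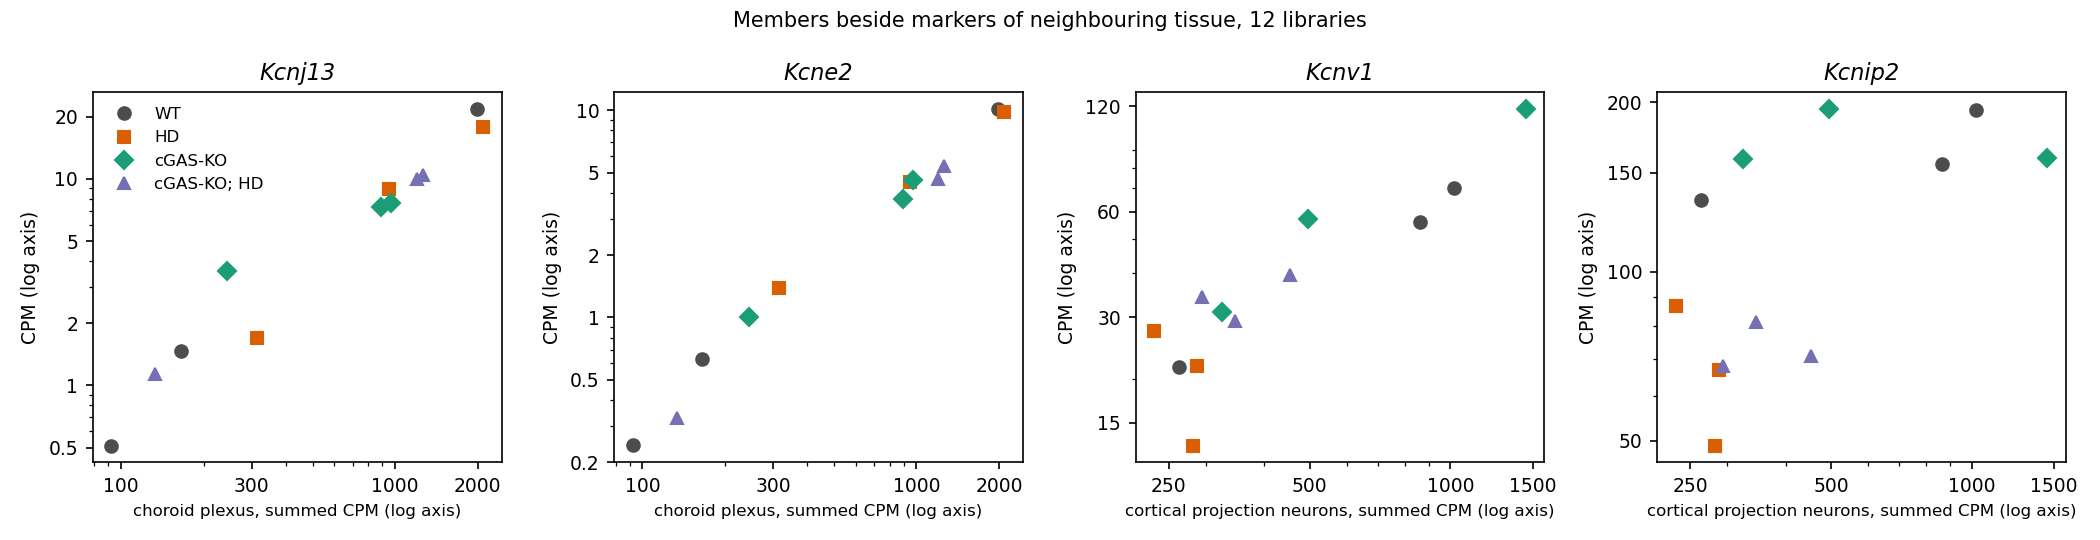
CPM of Kcnj13 and Kcne2 against the summed CPM of 8 choroid plexus markers, and of Kcnv1 and Kcnip2 against that of 11 cortical projection neuron markers, for the 12 libraries on log axes. Kcnj13 and Kcne2 rise with the markers in every group. Kcnv1 is highest in the libraries with the highest sums, cGAS-KO replicate 3 and WT replicate 3. The 6 knock-in libraries of Kcnip2 lie below the other 6. Their cortical marker sums span only 232.7 to 453.8 CPM, while libraries without the allele reach 1450 CPM, so at the higher marker levels there is no knock-in library to compare.

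Other genes of potassium handling were counted over lists outside the Kcn family. Of 18 tested genes for proteins that bind potassium channels or control them, 4 fell and 1 rose in the averaged comparison, with a median of -0.11. Abcc8, the sulfonylurea receptor that joins Kcnj11, fell by 0.43 ± 0.09 (SE, adjusted p = 0.00665). Rgs9 and Gnb5, which together speed the closing of G protein-gated channels, fell, with log2 changes of -1.36 ± 0.13 (SE, adjusted p = 4.28e-05) and -0.42 ± 0.08 (SE, adjusted p = 0.00558). Rgs9 also stands in the list of medium spiny neuron markers. Adam23 fell by 0.22 ± 0.06 (SE, adjusted p = 0.0347), and Cntn2, an adhesion protein at axonal Kcna clusters, rose by 0.31 ± 0.08 (SE, adjusted p = 0.0194). Lrrc26 and Lrrc52 had too few counts to be tested, and Dpp6 and Dpp10, which join Kcnd channels, had 0.03 ± 0.06 (SE, adjusted p = 0.825) and -0.11 ± 0.05 (SE, adjusted p = 0.18).

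Of 7 other cation channel genes, Tmem38a fell by 0.28 ± 0.05 (SE, adjusted p = 0.00192) and Hcn3 rose by 0.32 ± 0.09 (SE, adjusted p = 0.0305), with a median of 0.01. Of 11 genes for pumps and cotransporters that move potassium, 1 fell and 1 rose, with a median of -0.06. Slc12a2, a sodium, potassium and chloride cotransporter, rose by 0.37 ± 0.09 (SE, adjusted p = 0.0181).

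Reads from overlapping genes limit some members. By GENCODE, 37 of the 84 members and 10 of the 28 lower ones, Kcnab1 and Kcnh3 among them, overlap a gene on the opposite strand. The library kit keeps strand, per the labels, but no source used here says whether the counting used it.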

How the data were processed

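Poly(A) RNA of striatal tissue from 12 mice was sequenced with a directional kit, per the labels. The authors deposited 1 table of raw read counts per gene for each mouse, and the aligner, counter and genome build behind these counts are not named in the labels or file headers. Gene identifiers were matched to GENCODE M21 (GRCm38), which gave a symbol to 55227 of 55487 genes (99.5%), and gave lengths and positions. Counts were filtered with edgeR's filterByExpr (minimum count 10, minimum total 15), which left 21309 genes, scaled by TMM and fitted in 1 model of 4 groups with edgeR 4.0.16 (R 4.3.3). Every adjusted p is from its robust quasi-likelihood test with Benjamini-Hochberg adjustment over all 21309 genes, with a threshold of 0.05 and 8 residual degrees of freedom. SE is the log2 change divided by the square root of F, without its sign. The biological coefficient of variation was 18.06%.

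The comparisons, made in the same model, were each pair of groups that differ in 1 allele, both averaged effects and the interaction. Named are all called members, the member of each subfamily with the highest level per length and, in subfamilies without a call, that with the smallest p; further members are given by their differences. Some genes that this rule names are not reported here. The members, lists and rules were chosen with earlier results of these data known. Alternatives were DESeq2 1.42.0, limma-voom 3.58.1, other filters and thresholds, a replicate block, high Xist and marker levels as covariates, only the groups compared, and libraries left out; the marker covariates were added after seeing the data. Replicates are separate mice, per the labels. Promoters are from RefSeq (GRCm38.p6).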

Additional observations from a re-analysis of the deposited data

How the results depend on the processing

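With 3 mice a group, the number of members called in single pairs of groups moved with the settings, and none of the calls turned direction in the alternatives run; the share of all genes called in the same setting is given in parentheses. HD against WT, with 10 members (4.1%), gave 6 with no filter on low counts (2.14%), 21 with DESeq2 (8.45%), 4 with only the groups compared (4.59%, where the members' share was 4.82%), 5 with high Xist as a covariate (3.16%), 5 with the cortical marker level as a covariate (2.34%), 35 with WT replicate 1 and cGAS-KO replicate 3 both left out (16.5%), 16 at an adjusted p under 0.1 (7.24%) and 4 under 0.01 (1.21%). The double mutants against cGAS-KO, with 12 members (3.96%), gave 22 with DESeq2 (7.8%), 18 with the cortical marker level as a covariate (5.88%), 20 under 0.1 (6.89%) and 3 under 0.01 (1.31%). The averaged knock-in effect, with 28 members (13.2%), gave 18 under 0.01 (5.7%). With high Xist as a covariate, the double mutants against cGAS-KO gave 8 members (3.02%) and the averaged effect gave 27 (10.8%). cGAS-KO against WT gave 1 with both libraries left out (0.175%). Leaving out 1 library gave 3 to 22 members in HD against WT, 3 to 12 in the double mutants against cGAS-KO, and 19 to 33 for the averaged effect. The cause of these movements was not tested. In every alternative run, 2 of 10, 3 of 12 and 18 of 28 members were called.

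With the replicate number as a replicate block, the counts were 6 (2.38%), 10 (2.8%) and 27 (10.9%). Same-numbered libraries of different groups had deviations correlated from -0.3274 to 0.3117, above 0.1 in 2 of 18 pairs. For differently numbered libraries the range was -0.4356 to 0.4341, above 0.1 in 12 of 36 pairs. The numbers were therefore not taken to pair the mice.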
